A study of Homo sapiens with 16 samples.

Results

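The GAGE, XAGE, PAGE, CT45, SSX, CTAG and SPANX genes are cancer-testis antigen families, and their transcripts were followed in 2 colon cancer cell lines after 3 epigenetic drugs. Members were chosen by name. A probe set belongs here when every gene symbol that the platform gives it starts with GAGE, XAGE, PAGE and a digit, CT45A, SSX and a digit, CTAG or SPANX, which holds for 48 of 54675 probe sets. Of the 48, 38 read the antigen families: 14 SSX, 5 GAGE, 5 CTAG, 5 SPANX, 4 XAGE, 3 PAGE and 2 CT45 probe sets. The other 10 share only the letters (6 for SSX2IP, which encodes a protein that binds SSX2, and 4 for CTAGE genes) and are counted apart. Many copies in these families are nearly identical, and 21 of the 38 probe sets carry several symbols, so their signals are given for the family and not for one copy.

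HCT116 and RKO are human colon cancer lines. Each line had 8 arrays, 1 for the untreated control, 1 for each drug alone (PJ-34, TSA and 5-aza-dC), 1 for each pair of drugs and 1 for all 3 drugs. Cells were collected at 3 days. 5-aza-dC (0.5 µM) traps DNA methyltransferases, TSA (150 nM) inhibits histone deacetylases and PJ-34 inhibits poly(ADP-ribose) polymerases, at 3 µM in HCT116 and at 2 µM in RKO according to the methods but 3 µM according to the results text. No condition was repeated, so the error of every test comes from fitting 4 arrays with a drug against 4 without it, and p-values measure only the spread between these arrays. Each value is a linear signal intensity scaled by the authors to a common level on every array.

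Cancer-testis antigens are normally made in the male germ line and are silent in most other adult tissues. In somatic cells many of them are held off by methylation of CG dinucleotides at their promoters, and inhibitors of DNA methyltransferases are known to switch them on in tumor cells. Their proteins can be seen by T cells, and NY-ESO-1, the product of CTAG1B, is the best studied of them as an immunotherapy target. All 44 of the antigen genes found in the gene table are on chromosome X, where several of the families form tandem arrays.

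The promoters give the sequence context of these signals. For 32 of the 44 antigen genes, but for no CTAG gene, a window of 300 bases was at hand, from 250 before to 50 after an annotated start (RefSeq, GRCh38.p14). Those of 6 genes are shown in lower case with every CG in capitals: 1 for the GAGE copies, which gave the highest signals, 1 each for XAGE1, SSX2 and SPANX, and both PAGE1, which rose with 5-aza-dC, and PAGE4, which did not pass that test. They lie at chrX:49531927-49532226, plus strand (GAGE12C), chrX:52495627-52495926, plus strand (XAGE1A), chrX:52751002-52751301, plus strand (SSX2B), chrX:141584689-141584988, minus strand (SPANXA1), chrX:49695935-49696234, minus strand (PAGE1) and chrX:49829010-49829309, plus strand (PAGE4).
GAGE12C: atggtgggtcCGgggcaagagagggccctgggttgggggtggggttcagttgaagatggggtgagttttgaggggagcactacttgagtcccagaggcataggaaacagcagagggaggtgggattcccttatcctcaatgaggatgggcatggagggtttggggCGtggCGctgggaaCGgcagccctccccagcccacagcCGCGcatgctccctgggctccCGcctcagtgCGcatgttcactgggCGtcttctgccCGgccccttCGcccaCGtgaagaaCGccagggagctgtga
XAGE1A: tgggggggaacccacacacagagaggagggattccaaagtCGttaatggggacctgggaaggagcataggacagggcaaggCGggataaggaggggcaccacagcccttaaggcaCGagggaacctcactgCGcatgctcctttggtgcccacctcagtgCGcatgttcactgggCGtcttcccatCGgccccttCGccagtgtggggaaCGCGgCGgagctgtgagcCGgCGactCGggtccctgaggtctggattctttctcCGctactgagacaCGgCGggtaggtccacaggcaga
SSX2B: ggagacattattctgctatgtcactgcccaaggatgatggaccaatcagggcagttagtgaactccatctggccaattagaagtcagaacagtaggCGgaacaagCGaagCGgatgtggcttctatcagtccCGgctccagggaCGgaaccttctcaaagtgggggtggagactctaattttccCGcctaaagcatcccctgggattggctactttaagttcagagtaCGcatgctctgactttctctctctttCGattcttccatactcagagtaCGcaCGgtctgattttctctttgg
SPANXA1: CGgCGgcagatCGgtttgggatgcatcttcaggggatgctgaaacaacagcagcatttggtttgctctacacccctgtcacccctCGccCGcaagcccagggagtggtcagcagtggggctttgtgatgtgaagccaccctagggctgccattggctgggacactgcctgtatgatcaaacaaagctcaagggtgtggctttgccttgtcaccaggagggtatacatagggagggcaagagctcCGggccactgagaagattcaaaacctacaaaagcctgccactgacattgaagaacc
PAGE1: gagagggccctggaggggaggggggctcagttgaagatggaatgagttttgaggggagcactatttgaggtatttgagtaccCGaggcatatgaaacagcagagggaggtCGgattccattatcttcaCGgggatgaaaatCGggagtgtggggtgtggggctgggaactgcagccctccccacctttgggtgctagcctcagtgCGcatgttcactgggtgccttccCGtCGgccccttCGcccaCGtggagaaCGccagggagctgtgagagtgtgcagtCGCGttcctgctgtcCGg
PAGE4: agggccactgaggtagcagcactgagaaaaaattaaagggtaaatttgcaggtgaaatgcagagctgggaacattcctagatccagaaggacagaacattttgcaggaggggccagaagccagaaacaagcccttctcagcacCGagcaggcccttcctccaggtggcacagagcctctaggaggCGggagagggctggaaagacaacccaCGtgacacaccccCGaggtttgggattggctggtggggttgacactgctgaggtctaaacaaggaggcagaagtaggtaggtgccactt

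The GAGE12C window is letter for letter the same in 8 of the 11 GAGE genes with a window, and the GAGE windows hold 12 or 13 CG. The CG count was 5 to 12 in SSX windows, 8 to 18 in CT45 (3 genes), 6 to 9 in SPANX, 5 to 17 in XAGE and 4 to 13 in PAGE. Over all 35116 promoter windows the median is 14 CG and the upper quartile 28. The 40 antigen windows, which include none of CTAG genes, had a median of 12, and none of them reached that quartile. The PAGE1 window holds 13 CG, and PAGE4 has 2 windows with 4 (shown) and 5. The letters CACGTG (an E-box, the same on both strands and holding 1 CG of those counted) stand in all 12 GAGE windows, all 4 PAGE windows and 1 of 8 XAGE windows, and in none of the SSX, CT45 or SPANX windows, against 7.26% of all promoter windows. These matches are descriptions, and methylation was not measured in these files.

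The median signal was 152 to 210 over the 16 arrays, and 21.9% to 27.3% of probe sets read under 50, a level taken here as not distinguishable from no signal. In RKO, the array labelled PJ-34 had the members high and the array labelled PJ-34/5-aza-dC had them low. The same was read from other genes: of 207 probe sets outside the cancer-testis antigens that rose with 5-aza-dC in HCT116, 31.9% were at least 2-fold above the RKO control on the array labelled PJ-34 and 4.35% on the array labelled PJ-34/5-aza-dC, against 30.4% to 38.2% on the other 3 arrays with 5-aza-dC and 8.7% and 10.1% with TSA and PJ-34/TSA. Their labelled names are kept below, and RKO results are given with and without them. Because both were singled out by a readout of 5-aza-dC, fits without them are descriptions that support no call, and their 5-aza-dC p-values are not printed. Of 10 colon epithelium markers, EPCAM, CDH1, KRT8, KRT18 and KRT19 read 5297 or more on every HCT116 array, while CDX1, CDX2, VIL1, LGALS4 and GPA33 read 441.2 or less. RKO had KRT18 at 14320 to 16260, EPCAM at 3544 to 4139 and KRT8 at 269.7 to 519.8, but CDH1 at 3.9 to 117 and KRT19 at 4.95 to 18.2.

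In untreated cells the antigen families read low. In the HCT116 control 34 of the 38 probe sets read under 250 and 18 under 50, against 55.6% and 23.7% of all probe sets. In the RKO control 37 read under 250 and 20 under 50, against 59.1% and 27.1%. Without 5-aza-dC, 4 probe sets had signals of 250 or more in HCT116: PAGE4, XAGE2, the pseudogene XAGE-4 and 220217_x_at of the SPANX family. XAGE-4 read 440 to 750 in those arrays and 284 to 967 over all 16, with no gap between drugs.

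In HCT116 cells, 5-aza-dC raised most of the antigen families. Of the 38 probe sets, 20 reached 250 with it and read higher on every array with it than on every array without it. This held for 1.56% of all probe sets. The test used log2 signals with a floor of 50 and needed a signal of 100 in 4 or more arrays, which 27 of the 38 members had. Of these, 21 rose and 0 fell (limma, adjusted p under 0.05 over all 35373 probe sets tested), and the median effect was 3.08 on the log2 scale, against −0.01 over all probe sets tested. Over all probe sets 0.673% rose and 0.0707% fell. The count depends on the fit: it was 4 without the variance trend, 5 in 1 fit of all 16 arrays and 0 of 38 without a filter, or 10 of 38 (0.18% of all probe sets) when those at the floor on every array were also left out. Members that are off without the drug pass the filter only through the arrays where they are on, so the 27 are not all members. Across all 38 without a filter, 20 had every array with 5-aza-dC above every array without it, and 0 had them all below, which held for 2.12% and 1.66% of all probe sets.

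GAGE genes gave the largest rise. The 4 probe sets shared by 5 to 13 GAGE copies read 13.3 to 225 in the 4 arrays without 5-aza-dC. For 206640_x_at, which 10 copies share, the signal was 67.6 in the control, 112 with PJ-34, 20.5 with TSA and 33.7 with PJ-34/TSA, and 14482 with 5-aza-dC, 12782 with PJ-34/5-aza-dC, 4587 with 5-aza-dC/TSA and 1820 with all 3 drugs. The lowest array with 5-aza-dC was far above the highest array without it. Its effect was 6.57 on the log2 scale (SE 0.34, adjusted p = 3.26e-07), and the 4 shared sets lay between 6.06 and 6.81. The GAGE1 set 208283_at, the fifth, did not reach 250 on any array and read 115 at most in HCT116.

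The CT45 sets came next by effect. For the CT45A set 235700_at, shared by 9 copies, the arrays without 5-aza-dC read 38.1 to 190, and those with it read 8915 with 5-aza-dC alone, 7198 with PJ-34/5-aza-dC, 2582 with 5-aza-dC/TSA and 811 with all 3. The effect was 4.94 (SE 0.50, adjusted p = 1.16e-04), and 4.56 (SE 0.59) for 1567912_s_at. XAGE1A/XAGE1B (220057_at) read 32.7 to 184 without and 402 to 2105 with 5-aza-dC, an effect of 3.79 (SE 0.37, adjusted p = 8.72e-05). The other XAGE sets moved little: XAGE2 had an effect of −0.03 (SE 0.45, adjusted p = 0.991) and XAGE-4 one of 0.07 (SE 0.23, adjusted p = 0.944). XAGE3 (236040_at) reached 101 at most in HCT116 and was not tested.

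The SSX genes encode nuclear proteins that repress transcription and are known as partners of SS18 in the fusions of synovial sarcoma. Of 14 SSX probe sets, 11 were tested and 10 rose. SSX2/SSX2B (216471_x_at) read 8.9 to 62 without 5-aza-dC, and 1671 with 5-aza-dC alone, 1484 with PJ-34 added, 557 with TSA added and 393 with all 3 drugs. Its effect was 4.02 (SE 0.39, adjusted p = 8.09e-05). SSX1 (206626_x_at) rose by 3.32 (SE 0.33, adjusted p = 8.53e-05), from 102 to 189 without and 642 to 2579 with 5-aza-dC. SSX4/SSX4B rose by 3.08 and 3.21 in its 2 tested sets and SSX3 by 2.32 to 2.62 in its 3 sets. The second SSX1 set, 206627_s_at, read 8.4 to 12.6 without and 114 to 356 with 5-aza-dC but missed the test (1.83, SE 0.51, adjusted p = 0.161). The set 208528_x_at, shared by SSX3, SSX5 and SSX7, was not tested. It read 15.1 to 38.6 without and 387, 143, 191 and 30.9 with 5-aza-dC.

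CTAG genes, which include the gene of NY-ESO-1, rose less evenly. The CTAG1A/CTAG1B set 211674_x_at read 22.7 to 105 without 5-aza-dC and 1471, 1271, 299 and 242 with it, an effect of 3.33 (SE 0.44, adjusted p = 0.00159). A second set for the same genes, 210546_x_at, read 11.7 to 239 without and 1294, 1013, 319 and 48.1 with 5-aza-dC. These groups overlap, and it missed the test (2.19, SE 0.67, adjusted p = 0.217). CTAG2 (215733_x_at) rose by 3.21 (SE 0.61, adjusted p = 0.0229), with one array of each kind close together (224 with TSA alone and 206 with all 3 drugs). The other CTAG2 set, 207337_at, did not share this rise and was not tested. It read 8.97 to 111 without 5-aza-dC and 44.8, 191, 73.3 and 8.37 with it, so its groups overlap.

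In PAGE and SPANX, 1 of 2 tested sets rose in each family in HCT116. PAGE1 (206897_at) rose by 2.45 (SE 0.41, adjusted p = 0.00904), from 10.3 to 94.5 without to 211 to 518 with 5-aza-dC. PAGE4, a gene best known from the prostate, read 200 to 289 without and 269 to 511 with 5-aza-dC, and missed the test (0.61, SE 0.30, adjusted p = 0.490). SPANX genes encode proteins of the sperm nucleus. Only 220922_s_at, shared by 4 SPANX copies, rose (2.65, SE 0.48, adjusted p = 0.0158), and it reached 571 at most. PAGE5 and the SPANXA2-OT1 transcript stayed under 250 on all 16 arrays.

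**Figure D1:**
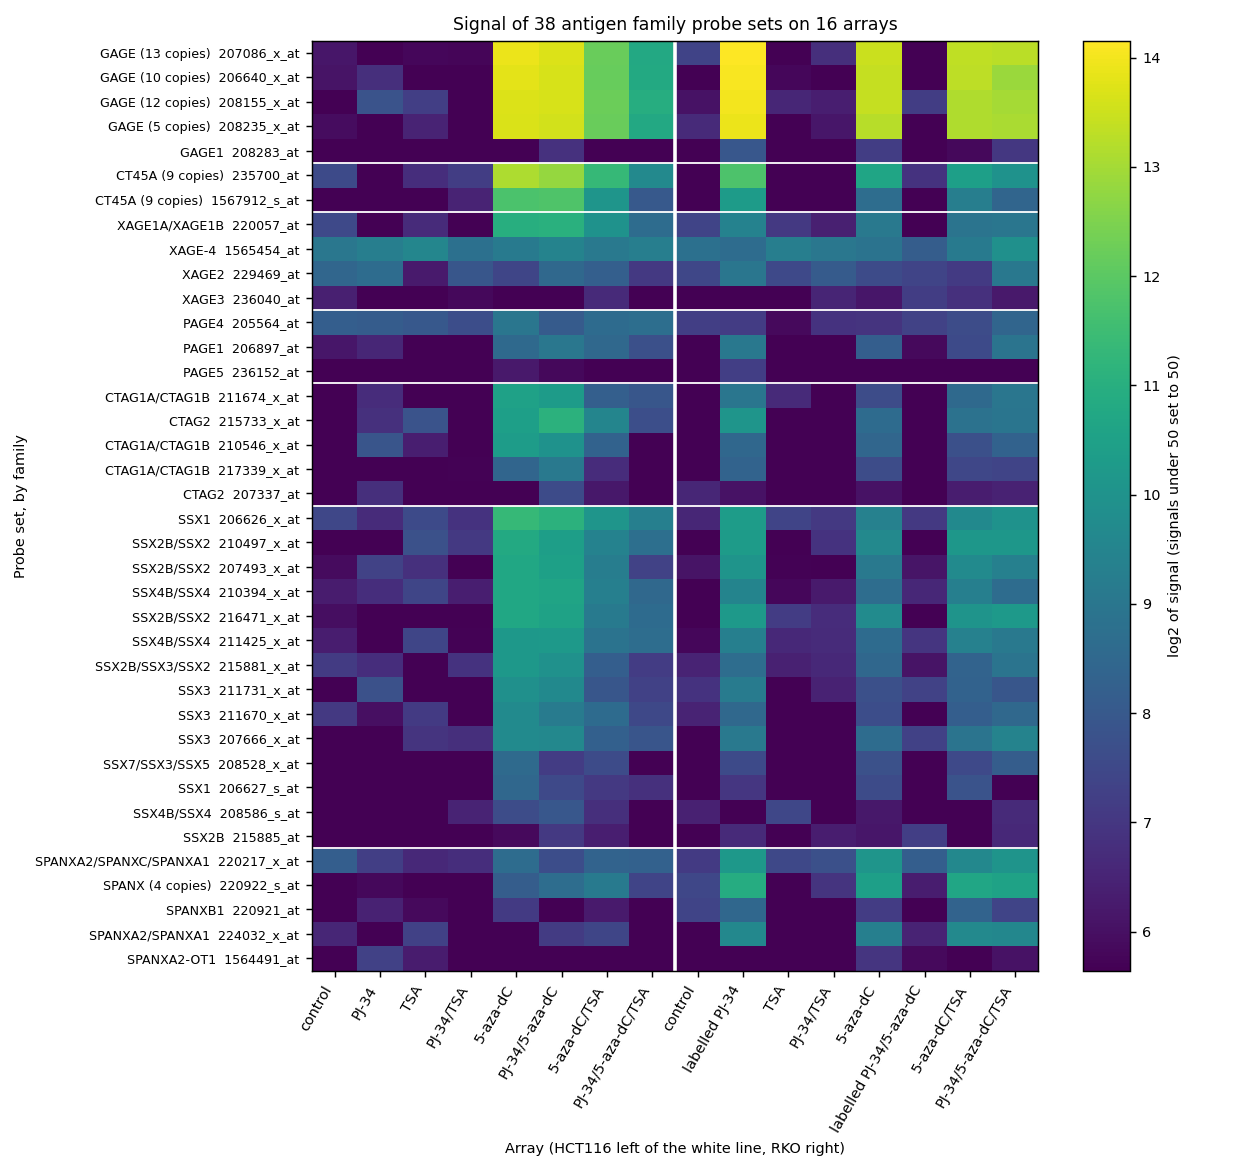
Heat map of the log2 signal (signals under 50 set to 50) of the 38 antigen family probe sets, in rows by family, on the 16 arrays in columns, HCT116 on the left and RKO on the right. The 4 GAGE sets shared by several copies reach 13042 to 15348 on the HCT116 5-aza-dC array, while XAGE-4 stays between 284 and 967 throughout.

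These calls rest on few arrays. Without the 5-aza-dC array 8 members were called, without PJ-34/5-aza-dC 9 and without 5-aza-dC/TSA 11, in fits that tested 19 members each. When arrays were left out singly, 12 of the 21 calls remained in all fits that tested them, though 4 of those 12 were tested in only 4 of the 8 fits. The calls that ended most often were CTAG2 215733_x_at (in 6 fits), SSX2/SSX3 215881_x_at and SSX3 211731_x_at (5 each). Fewer cells with a gene on and less RNA per cell cannot be told apart in these bulk samples.

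In RKO cells, no antigen member passed the 5-aza-dC test by labels, while the arrays other than the 2 disputed ones had many of them high with 5-aza-dC and low without it. By labels, 0 of 30 tested members passed (limma, smallest adjusted p = 0.882, median effect 1.23), where 0% of all 33862 probe sets tested passed and 1759 had an unadjusted p under 0.05. Without these 2 arrays and without a filter, apart from sets at the floor on every array, 12 of 37 members were past the threshold upward and 0 downward (0.207% of all probe sets upward). With a signal of 100 asked for in 3 arrays (the number left with 5-aza-dC, a limit set after seeing the data) it was 22 of 30 and 0, against 1.12% and 0.825% of all probe sets, with a median effect of 2.67. That limit lets members in through just the 3 arrays where they are high. With 4 arrays asked for it was 10 of 15 (1.11% of all probe sets), and without only the array labelled PJ-34, 7 of 18. Both disputed arrays were singled out by a readout of 5-aza-dC that the members shared. All counts without them therefore describe the other arrays and support no call. Across all 38 without a filter, 28 had the 3 undisputed arrays with 5-aza-dC above the 3 without it and 0 had them below, which held for 9.12% and 5.56% of all probe sets, and by labels 0 were above or below (1.77% and 0.974%).

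GAGE sets had the highest signals in RKO too. The set 206640_x_at read 7.02 in the control, 55.3 with TSA and 23.2 with PJ-34/TSA, against 10884 with 5-aza-dC, 10108 with 5-aza-dC/TSA and 7516 with all 3 drugs. The array labelled PJ-34 read 17124 and the array labelled PJ-34/5-aza-dC read 18.3. Over the 6 undisputed arrays its effect was 7.50 (SE 0.20), and those of the 4 shared sets lay between 6.77 and 7.50. All 4 read 15289 to 18248 on the array labelled PJ-34, above every other RKO array. Over the 38 members, 31 read higher on the array labelled PJ-34 than with 5-aza-dC alone, against 46.7% of all probe sets. With 5-aza-dC alone, 10 of 38 read higher in RKO than in HCT116, against 49.4%.

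Of the 5 SPANX sets, 3 had signals of 634 or more on every undisputed RKO array with 5-aza-dC. For 220922_s_at the signal was 175 in the control, 27.6 with TSA and 122 with PJ-34/TSA, against 1403 with 5-aza-dC, 1636 with 5-aza-dC/TSA and 1489 with all 3 drugs, with 1925 on the array labelled PJ-34 and 79.4 on that labelled PJ-34/5-aza-dC. The effect over the undisputed arrays was 3.88 (SE 0.35). SPANXA1/SPANXA2 (224032_x_at) had an effect of 3.86 (SE 0.41), from 29 to 37.5 without to 634 to 799 with 5-aza-dC, whereas in HCT116 it read 20.5 to 173 on all 8 arrays. The set 220217_x_at had an effect of 2.48 (SE 0.28) and SPANXB1 (220921_at) one of 1.41 (SE 0.61), while SPANXA2-OT1 was not tested.

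In the 6 undisputed RKO arrays the effect was 4.71 (SE 0.35) for the CT45A set 235700_at, 3.49 to 3.92 for the 3 sets of SSX2/SSX2B alone, and 2.05 (SE 0.36) for XAGE1A/XAGE1B. Of 26 members tested in both lines, 13 had the larger estimate in HCT116. In the plot of the effects of both lines, the SPANX sets 220922_s_at and 220217_x_at lie above the line of equal effect and XAGE1A/XAGE1B lies below it. SPANXA1/SPANXA2 224032_x_at is not plotted, since it was not tested in HCT116.

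**Figure D2:**
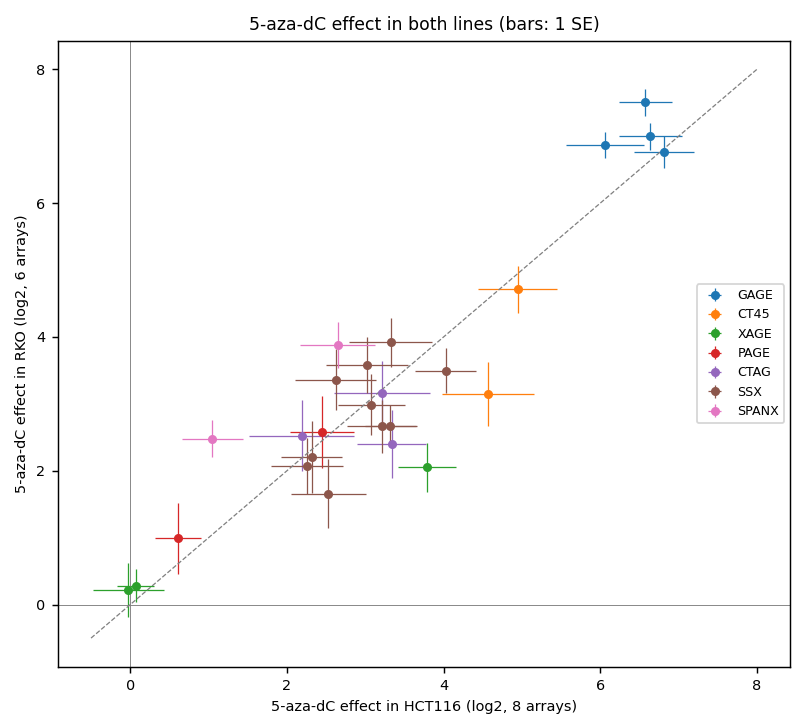
Effect of 5-aza-dC on the log2 scale for the 26 antigen family probe sets tested in both lines, HCT116 (8 arrays) on the horizontal axis and RKO (6 undisputed arrays) on the vertical axis, with bars of 1 SE and a dashed line of equal effect. GAGE sets lie at the top right (6.06 to 6.81 in HCT116 and 6.77 to 7.50 in RKO), and XAGE2 (−0.03 and 0.22) and XAGE-4 (0.07 and 0.28) lie lowest.

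Whether the lines differed in their response to 5-aza-dC was tested directly, and no member passed. By labels this was 0 of 33 (limma, smallest adjusted p = 0.489), where 0.0309% of all probe sets passed and 3118 had an unadjusted p under 0.05. Without the 2 disputed arrays it was 0 of 32, where 0.165% of all passed and 3576 had an unadjusted p under 0.05, and the nearest was SPANXA1/SPANXA2 224032_x_at, whose effect was lower in HCT116 by a log2 difference of −3.68 (SE 0.76). The mean level over all treatments differed for 2 of 33 members, against 44.3% of all probe sets: PAGE4 was higher in HCT116 (1.12, SE 0.27, adjusted p = 0.00220) and the SPANX set 220217_x_at was higher in RKO (−1.08, SE 0.40, adjusted p = 0.0330, as HCT116 minus RKO). Without the disputed arrays, in a fit that supports no call, 6 of 32 were past the threshold, a smaller share than the 38.7% of all probe sets. Among these, PAGE4 and CT45A 235700_at had the higher estimate in HCT116. GAGE 207086_x_at and the SPANX sets 220922_s_at, 224032_x_at and 220217_x_at had it in RKO.

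**Figure D3:**
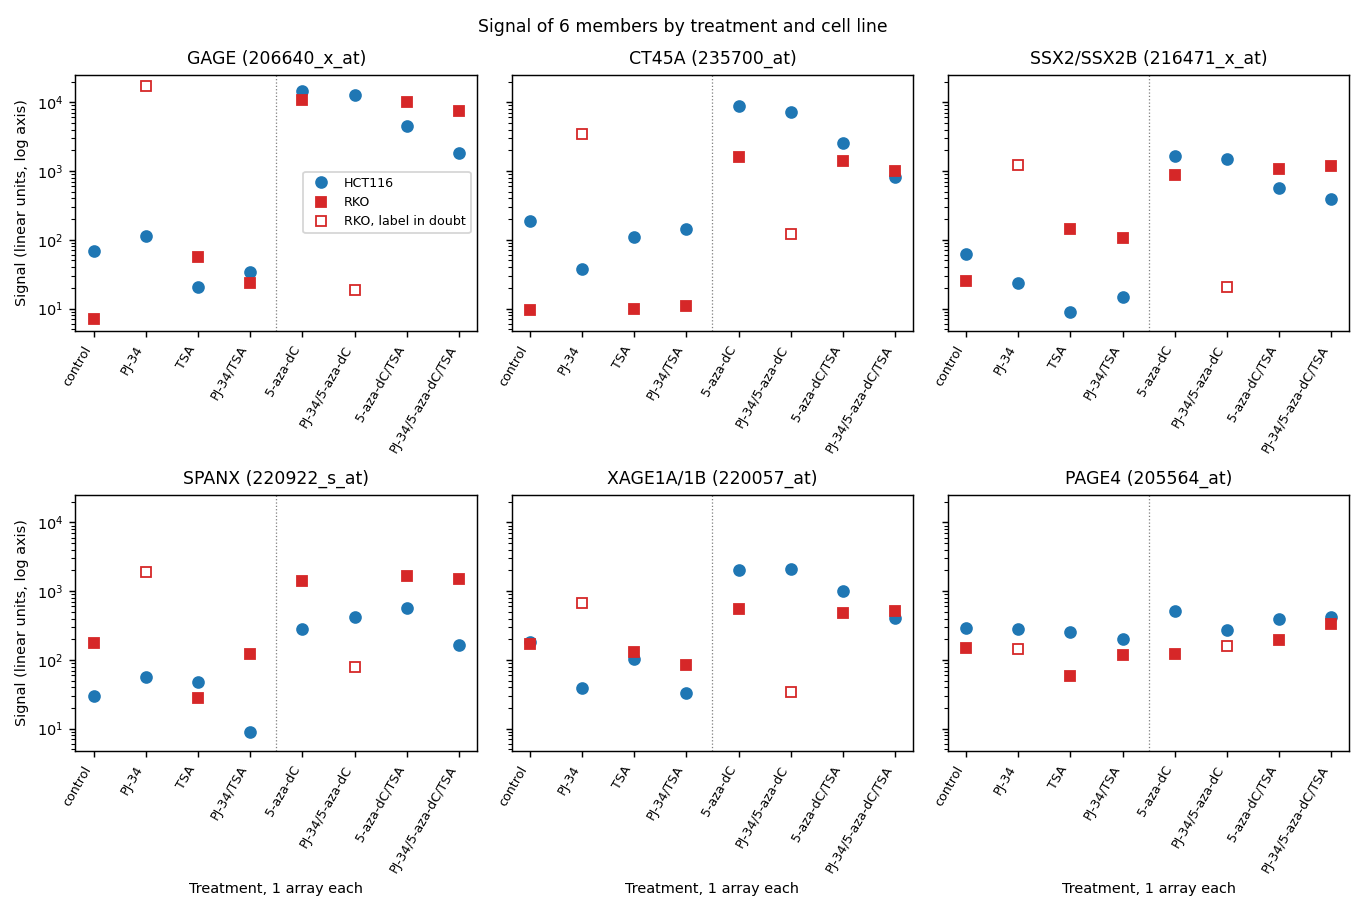
Signal (log axis) of 6 members on the 8 arrays of HCT116 (blue circles) and RKO (red squares, open for the 2 arrays whose labels are in doubt), with the treatments containing 5-aza-dC to the right of the dotted line. The GAGE set reads 14482 in HCT116 and 10884 in RKO with 5-aza-dC alone, and the SPANX set is higher in RKO than in HCT116 on every array with 5-aza-dC but the disputed one.

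Adding TSA to 5-aza-dC went with lower antigen signals in HCT116. Of the 38 probe sets, 25 had both arrays with 5-aza-dC and TSA below both arrays with 5-aza-dC and no TSA, against 21.4% of all probe sets. Among the 21 sets that read at least 250 on the 5-aza-dC arrays of both lines, the 5-aza-dC/TSA signal was a median of 36.6% of the 5-aza-dC signal in HCT116 (24.6% to 202%), and the array with all 3 drugs was a median of 19.1% of PJ-34/5-aza-dC. Over the 20962 probe sets of all genes that met the same limit, the medians were 95.9% and 101%. These are ratios of single arrays and carry no error. The 5-aza-dC arrays set the limit and are also denominators, here and in RKO, which can lower those ratios. GAGE sets kept 31.2% to 36.1% of their signal with TSA, CT45A 235700_at kept 29% and XAGE1A/XAGE1B kept 49.8%.

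In RKO the median ratios to 5-aza-dC alone were above 100%. Over the same 21 sets, 5-aza-dC/TSA was a median of 117% of 5-aza-dC (59.3% to 173%). All 3 drugs were a median of 106% of 5-aza-dC alone, and no set was under 50% in either ratio. The second ratio adds PJ-34 as well as TSA, since the array labelled PJ-34/5-aza-dC is disputed. It is therefore not matched to the HCT116 ratio, which was taken over PJ-34/5-aza-dC. Both of these arrays read below the 5-aza-dC array for 11 of 38 members, against 35.3% of all probe sets. The GAGE set 206640_x_at read 92.9% with TSA in RKO against 31.7% in HCT116. The difference between the lines in this respect was not tested.

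**Figure D4:**
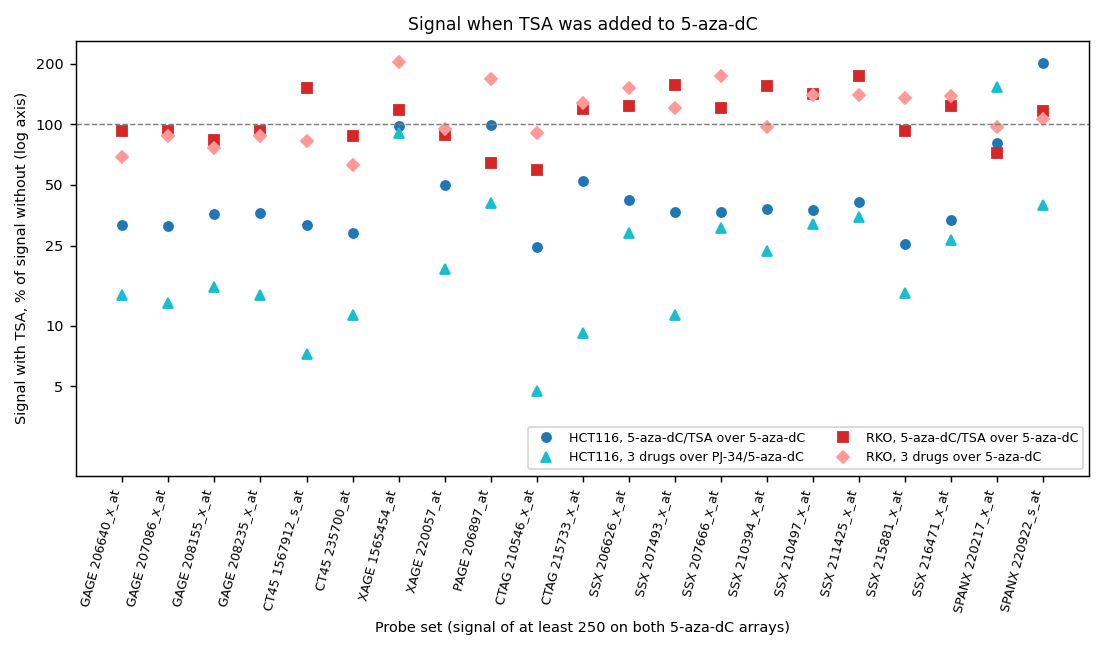
Signal with TSA as a percentage of the signal without TSA (log axis) on arrays with 5-aza-dC, for the 21 antigen family sets with at least 250 on both 5-aza-dC arrays. HCT116 ratios lie mostly between 5% and 50% (blue and cyan), and RKO ratios (red and pink) lie between 59.3% and 203%, around the dashed line at 100%.

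In the tests, 1 antigen member passed for TSA in HCT116, with a lower signal. The GAGE set 206640_x_at had an effect of −1.52 over 4 arrays with TSA and 4 without (SE 0.34, adjusted p = 0.0143). Part of this contrast lies near the floor. Without 5-aza-dC the set read 67.6 in the control and 112 with PJ-34, against 20.5 with TSA and 33.7 with PJ-34/TSA. Both of these TSA readings are under the floor and were raised to it. The other 3 shared GAGE sets did not pass. They kept 31.2% to 36.1% of their 5-aza-dC signal with 5-aza-dC/TSA. Over the 27 tested members 0 rose, where 4.16% of all probe sets rose and 4.83% fell. The median effect over the 27 tested members was −0.91, against −0.07 over all probe sets. Without 1 array the count was 6 (no control), 8 (no TSA), 4 (no PJ-34/TSA), 2 (no PJ-34 or no 5-aza-dC/TSA) and 0 (no 5-aza-dC or no array with all 3 drugs). The interaction of 5-aza-dC with TSA passed for 0 of 27 members and 0% of all probe sets (1902 had an unadjusted p under 0.05). Its median was −1.70, and SSX2/SSX2B 210497_x_at was nearest with −3.28 (SE 0.60, adjusted p = 0.512). In RKO, 0 of 30 members passed for TSA by labels, where 0.00591% of all probe sets passed and 4158 had an unadjusted p under 0.05. Without the disputed arrays 0 of 30 passed, where 0.0433% of all passed and 2842 had an unadjusted p under 0.05.

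No member passed the test for PJ-34 in either line. In HCT116 0 of 27 passed (limma, smallest adjusted p = 0.981), where 0% of all probe sets did and 1323 had an unadjusted p under 0.05. The median effect of the members was −0.31, and on top of 5-aza-dC the PJ-34/5-aza-dC signal was a median of 92.8% of the 5-aza-dC signal over the 21 sets. Here too the 5-aza-dC array set the limit and is the denominator. PJ-34/5-aza-dC read below 5-aza-dC for 24 of 38 members, against 55.9% of all probe sets. With TSA also present the ratio for added PJ-34 was lower, a median of 41.4% of 5-aza-dC/TSA in HCT116, while in RKO it was 99%. The array with all 3 drugs read below 5-aza-dC/TSA for 35 of 38 members in HCT116, against 47.1% of all probe sets, and for 18 of 38 in RKO, against 44.1%. The interaction of 5-aza-dC with PJ-34 passed for 0 of 27 (median −0.23), with 0% of all probe sets passing and 3298 having an unadjusted p under 0.05. In RKO 0 of 30 passed for PJ-34 by labels, with 895 of all probe sets having an unadjusted p under 0.05, and 0 of 30 without the disputed arrays, with 1986. The fit by labels uses the disputed arrays, and in the fit without them every array with PJ-34 also had TSA. Neither RKO fit therefore reads PJ-34 without TSA from undisputed arrays.

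Each array was also set against the control of its line. A member was taken as switched on when its control read under 50 and the treated array at least 50 and at least 5-fold higher. In HCT116 this held for 14 of 38 members with 5-aza-dC (5.46% of all probe sets), 15 with PJ-34/5-aza-dC (4.75%), 13 with 5-aza-dC/TSA (4.17%) and 7 with all 3 drugs (4.47%), and for 5 with PJ-34 (5.13%), 3 with TSA (5.29%) and 1 with PJ-34/TSA (3.56%). In RKO it held for 18 with 5-aza-dC (5.61%), 16 with 5-aza-dC/TSA (5.19%) and 17 with all 3 (7.29%), for 2 with TSA (4.75%) and 3 with PJ-34/TSA (4.41%), for 18 on the array labelled PJ-34 (5.26%) and for 4 on the array labelled PJ-34/5-aza-dC (4.55%). Members whose control read 50 or more, such as 3 of the 4 shared GAGE sets in HCT116, could not be counted this way. The control read under 50 for 18 of 38 members in HCT116, against 23.7% of all probe sets. In RKO it did so for 20 of 38, against 27.1%. The shares over all probe sets are therefore not matched to the members for a low control, which raises the members' counts on any array.

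Among the 10 probe sets that share only letters with the families, no SSX2IP or CTAGE set passed for 5-aza-dC in HCT116. Some had the order of the families: all 6 SSX2IP sets read lower on both HCT116 arrays with 5-aza-dC and TSA than on both with 5-aza-dC and no TSA (21.4% of all probe sets), and 3 of the 4 CTAGE sets had the 3 undisputed RKO arrays with 5-aza-dC above the 3 without (9.12%). SSX2IP was expressed in every array (795 to 6235) and 3 of its 6 sets fell with TSA in HCT116, 203017_s_at with a log2 effect of −0.77 (SE 0.15, adjusted p = 0.00671), 203018_s_at with −0.58 and 203019_x_at with −0.70. All 6 SSX2IP sets were higher in HCT116 than in RKO over all treatments, by 0.40 to 0.79, where 44.3% of all probe sets differed between the lines.

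Genes outside these families that share their tissue pattern or act on them were read from lists chosen with earlier results in view. Of 30 other cancer-testis antigens, 26 were on the array and 17 were tested in HCT116, and 5 rose with 5-aza-dC, against 0.673% of all probe sets. TKTL1, a transketolase-like gene on chromosome X, rose by 7.18 (SE 0.50, adjusted p = 3.91e-06), MAGEA4 by 4.88 (SE 0.38), MAGEA12 by 1.76 (SE 0.24) and PRAME by 0.85 (SE 0.14). TKTL1 also fell with TSA (−1.94, adjusted p = 0.0281). None of 15 tested DNA methylation genes and readers and none of 19 histone silencing genes passed for 5-aza-dC, against 0.673% and 0.0707% of all. For TSA, 1 of the 15 rose, and 2 of the 19 rose and 2 fell, against 4.16% and 4.83% of all. DNMT1 had a 5-aza-dC effect of −0.01 (SE 0.10), HDAC1 one of 0.03 (SE 0.11) and PARP1 one of −0.05 (SE 0.13). Of 6 male germ cell markers, 4 were tested and 0 passed for 5-aza-dC in HCT116. DAZL read 1179 and SYCP3 989.5 on the 5-aza-dC array against 73.5 and 135 in the control. With 5-aza-dC/TSA they read 17.6 and 210.9, and with all 3 drugs 44.7 and 243.5. TNP1 read 402.6 with 5-aza-dC and 138.6 with PJ-34/5-aza-dC, against 158.3 in the control. The protamine genes PRM1 and PRM2 read 4.61 to 346 over the 16 arrays.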

How the data were processed

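RNA of HCT116 and RKO cells was read on Affymetrix Human Genome U133 Plus 2.0 arrays, 1 per condition and 16 in all. The authors deposited linear signal intensity values for 54675 probe sets, computed by GCOS, whose version is not given in the sources used here. The software scales each array to one target. Scaling sets arrays to one level, so a change shared by most genes would be lost, and probe sets ending in _x_at or _s_at can read several copies of a family.

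Gene names came from the platform annotation, and gene positions and promoter windows from RefSeq (GRCh38.p14). Of 53 gene numbers named by members, 51 were in the gene table. Control probe sets (62) were left out, and 0 per-sample columns went unused. Signals were floored at 50 and put on a log2 scale, and those reaching 100 in 4 or more arrays of a fit were tested with limma 3.58.1 in R 4.3.3. Each line had a term per drug, variances were moderated with a trend, and p was adjusted over all probe sets tested (Benjamini and Hochberg, 0.05). Interactions left out of a model stay in its residual. Models of both lines added line terms, which gave 10 comparisons. The RKO arrays were also read over probe sets called higher with 5-aza-dC in HCT116, without those of cancer-testis antigens. Tables were made with Python 3.11.15 and pandas 2.3.3, and the fit was tested on simulated data. The number of arrays limits the precision. Alternatives were another floor, no filter, quantile normalization, no trend, 1 fit of all arrays and fits without single arrays.

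Members past the test in any comparison or with a signal of at least 250 on any array are named singly or with other sets of their genes. Most others are given in ranges. Of gene lists, up to 4 genes with the smallest p for 5-aza-dC in HCT116 are named, plus DNMT1, HDAC1 and PARP1. The members, lists and tests were chosen with earlier results of these data known.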

Additional observations from a re-analysis of the deposited data

How the results depend on the processing

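No paired analysis was possible because every array has the replicate number 1, so these numbers pair nothing beyond the matched drug combinations that the drug terms already compare. None of the 33 member results past the threshold reversed its sign, but estimates that did not pass did: without the disputed arrays the median line difference of the 5-aza-dC effect went from 3.05 to −0.58 for GAGE, and the median PJ-34 effect in RKO, with the filter of 3 arrays, from 0.33 to −0.34 for CT45. The 5-aza-dC count of 21 in HCT116 was 20 with a floor of 20 or 100, 21 with quantile normalization, 4 without the variance trend, 5 in 1 fit of all 16 arrays, 0 without a filter, and 10 without a filter when probe sets at the floor on every array were left out (an alternative chosen after seeing the data). Without 1 array it was 8 to 22. The TSA count of 1 in HCT116 was 2 with a floor of 100, 0 without a filter (also with floor-level probe sets left out), without the trend or in 1 fit of all arrays, and 0 to 8 without 1 array. The 5-aza-dC count in RKO was 0 to 7 without 1 array, 10 without both disputed arrays and 22 with the filter of 3 arrays as well (chosen after seeing the data). Counts without the disputed arrays, here and for the lines below, support no call. The line count of 2 was 1 without a filter (also with floor-level probe sets left out) or without the trend, 6 without both disputed arrays, and 1 to 9 without 1 array. Members switched on in HCT116, at 3-fold with limits of 100, were 22 with 5-aza-dC, 24 with PJ-34 added, 21 with TSA added and 15 with all 3 drugs. At 16-fold they were 5 with 5-aza-dC/TSA, 1 with all 3 drugs, 1 with PJ-34, and 0 with TSA or PJ-34/TSA in both lines. The counts at these 2 limits stand without the share over all probe sets. Each limit is given for only some arrays, so they do not rank the drugs. The cause of these shifts was not tested.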
